A study of Homo sapiens with 16 samples.

Results

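The integrated stress response and the unfolded protein response are represented here by 39 genes, out of 17553 named genes on the array. They were chosen as a list of known members and then read through every probe that the platform annotation gives to 1 of those symbols, which found 50 of 24530 probes. The list has 24 genes of the amino acid branch, which runs through the transcription factor ATF4, and 15 genes of the endoplasmic reticulum (ER) chaperone branch, which runs through XBP1 and ATF6. Of the 39 genes, 38 were detected well enough to test, 23 of the ATF4 branch and 15 of the ER branch. The exception was SLC7A11, the cystine transporter, which was not detected on any of the 16 arrays.

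When cells lack amino acids, sense double-stranded RNA or accumulate misfolded protein in the ER, kinases phosphorylate the translation factor eIF2. General translation then slows while ATF4 protein is made from its existing mRNA, and ATF4 switches on genes for amino acid synthesis, amino acid uptake, tRNA charging and stress feedback. Misfolded ER protein also activates IRE1, which splices XBP1 mRNA, and ATF6, and these factors raise the chaperones, disulfide isomerases and degradation factors of the ER.

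The study used T47D-MTVL, a line of human T47D breast cancer cells with an integrated luciferase reporter under the MMTV promoter. In 3 derived lines, doxycycline (Dox) releases a KRAB repressor fused to the Tet regulator and so turns on a short hairpin RNA: a random hairpin (Ctrl), a hairpin against histone H1.4 (sh120) or a hairpin against several H1 variants (sh225). These lines were sorted for red and green fluorescence, and each was compared without and with 2.5 µg/mL Dox over 6 days (cells were split at day 3, and serum was withdrawn from day 4). The remaining lines carried HA-tagged H1.4, wild type (WT) or with the K26A substitution (K26), and were grown without treatment.

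Each of the 8 groups (Ctrl, Ctrl_Dox, sh120, sh120_Dox, sh225, sh225_Dox, WT and K26) had 2 arrays. Nothing in the sources used here says that they came from separate cultures, so the p-values cover only array-to-array spread, part of which may be technical. Each condition rests on 1 cell line. The labels do not say if cells grown without Dox also lost serum, so Dox, the hairpin and serum removal cannot be told apart within a single line. Between 9477 and 10286 probes were detected per array. Array names count from 1 to 8 in each of 2 runs. Raw median intensities were 78.0 to 89.8 in the run that holds Ctrl and sh120 and 97.65 to 105.4 in the run that holds sh225, WT and K26. Every Dox effect and K26 against WT lie within 1 run, while comparisons of WT or K26 with Ctrl cross them. Of 8 luminal epithelial markers, 6, among them ESR1, GATA3 and KRT8, were detected on all 16 arrays, KRT18 on 15 and EPCAM on 12. None was detected of 2 basal markers (KRT5 and KRT14) and of 4 endothelial markers (PECAM1, VWF, CDH5 and KDR). Of 4 leukocyte markers CD68 was detected on 16 arrays and PTPRC, CD3E and LYZ on 0, and of 6 fibroblast markers COL1A1 on 16, VIM on 10 and COL1A2, COL3A1, DCN and LUM on 0. Among the linker histones, H1-2 fell by 2.75 ± 0.15 (standard error) on the log2 scale with Dox in sh225. With Dox in Ctrl it rose by 0.55 (adjusted p = 0.0473 in limma), and its change of 0.30 in sh120 was not called. Its level in the WT line exceeded that in Ctrl by 1.48 (adjusted p = 4.4e-07), and K26 exceeded WT by 1.21 (adjusted p = 1.62e-05). The part of this difference in the K26 and WT results was not tested. H1-4 was detected only in WT and K26, so the sh120 target could not be checked. In bulk RNA, fewer cells that express a gene and less of its RNA per cell cannot be told apart.

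For 36 of the 39 genes, RefSeq (GRCh38.p14) gave the 250 bases before and 50 bases after a start of the gene. For some genes, among them ASNS, SLC3A2 and PDIA6, that start lies inside the gene's full annotated span and not at its outer end. These 300-base windows were searched on both strands for 4 short sequences known to bind the factors of the pathways. The C/EBP-ATF response element, TGATGNAA, stood in 5 of 21 windows of the ATF4 branch (AARS1, ASNS, CHAC1, SLC3A2 and SLC7A1) and in 1 of 15 of the ER branch (HERPUD1), against 3.67% of 27305 windows over the genome. The ER stress element, CCAAT and 9 bases later CCACG, stood in 5 of 15 windows of the ER branch (CALR, CRELD2, HSP90B1, HSPA5 and XBP1) and in 0 of 21 of the ATF4 branch, against 0.0806% of all windows. The unfolded protein response element, TGACGTGG, was found in HYOU1 alone, against 0.795% of all windows, and the cAMP response element, TGACGTCA, in none, against 1.98%. A match is a description of letters and not evidence of binding. One pair of windows per branch is shown as an example. CHAC1 and ASNS rose with Dox in sh225, HSPA5 did not pass the test there, and CALR fell. Among the other genes with the C/EBP-ATF match, SLC3A2 and SLC7A1 rose there, while AARS1 and HERPUD1 were not called. CRELD2, HSP90B1 and XBP1, which have the ER stress element, were not called there either. A link between matches and expression was not tested. Capitals mark the match, read from 5′ to 3′ along the gene's own strand.
CHAC1 (chr15:40953221-40953520, plus strand): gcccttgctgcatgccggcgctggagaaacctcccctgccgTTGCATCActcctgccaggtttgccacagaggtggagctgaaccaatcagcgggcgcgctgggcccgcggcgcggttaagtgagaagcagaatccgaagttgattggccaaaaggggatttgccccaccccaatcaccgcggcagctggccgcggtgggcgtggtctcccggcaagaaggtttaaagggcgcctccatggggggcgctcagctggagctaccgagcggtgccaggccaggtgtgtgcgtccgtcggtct
ASNS (chr7:97872359-97872658, minus strand): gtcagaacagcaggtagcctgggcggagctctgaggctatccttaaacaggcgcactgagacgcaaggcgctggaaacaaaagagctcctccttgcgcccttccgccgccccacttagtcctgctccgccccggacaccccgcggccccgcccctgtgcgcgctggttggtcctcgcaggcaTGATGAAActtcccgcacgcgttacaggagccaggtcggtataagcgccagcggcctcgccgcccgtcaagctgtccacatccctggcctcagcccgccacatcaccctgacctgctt
HSPA5 (chr9:125241294-125241593, minus strand): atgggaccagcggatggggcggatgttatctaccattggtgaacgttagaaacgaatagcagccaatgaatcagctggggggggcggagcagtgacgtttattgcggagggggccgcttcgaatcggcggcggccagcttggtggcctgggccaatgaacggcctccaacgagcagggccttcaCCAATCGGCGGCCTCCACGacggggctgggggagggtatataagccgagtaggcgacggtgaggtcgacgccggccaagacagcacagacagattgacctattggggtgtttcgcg
CALR (chr19:12938359-12938658, plus strand): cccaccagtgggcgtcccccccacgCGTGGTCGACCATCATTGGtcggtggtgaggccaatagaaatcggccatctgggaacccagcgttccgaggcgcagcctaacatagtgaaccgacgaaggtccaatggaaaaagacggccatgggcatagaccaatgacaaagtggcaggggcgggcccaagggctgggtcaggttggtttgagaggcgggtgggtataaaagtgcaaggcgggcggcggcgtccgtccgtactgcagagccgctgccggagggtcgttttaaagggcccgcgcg
The C/EBP-ATF match began 209 bases before the start used for CHAC1 and 68 bases before that used for ASNS. The ER stress element began 66 bases before the start of HSPA5 and 225 bases before that of CALR.

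The 2 branches parted in their extremes. The mean of sh225_Dox was the highest of the 8 groups for 13 of 23 genes of the ATF4 branch and for 0 of 15 of the ER branch, against 19.5% of all items tested. The mean of K26 was the lowest for 15 of 23 genes of the ATF4 branch and for 5 of 15 of the ER branch, against 26.7% of all items.

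**Figure D1:**
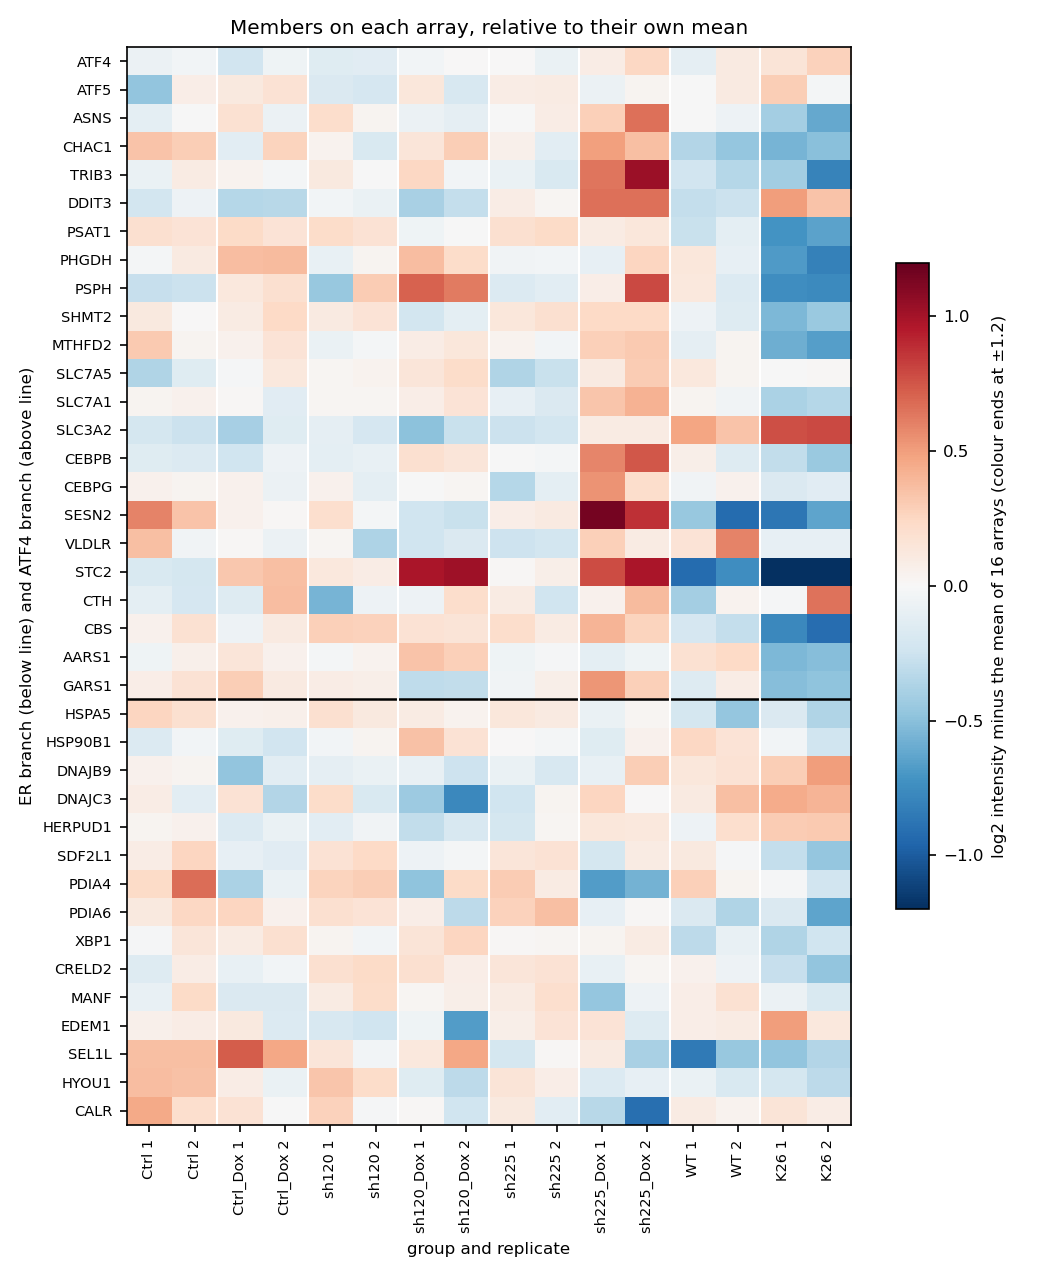
Each row is 1 of the 38 tested genes and each column 1 of the 16 arrays, and the colour gives the log2 intensity minus the gene's mean over all arrays, ending at ±1.2. Above the black line the ATF4 branch is red on most sh225_Dox arrays and blue on most K26 arrays, with DDIT3 and SLC3A2 red in K26, and below it the ER branch is paler.

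The Dox effect in sh225 compared the line with the hairpin against several H1 variants with and without Dox. H1-1, H1-3, H1-4 and H1-5 were not detected on any hairpin array, so their depletion could not be checked. Serum removal and Dox itself also cannot be told apart from the hairpin here. The rises were all in the ATF4 branch: 13 of 23 ATF4-branch genes were higher with Dox and 0 lower, while 0 of 15 ER-branch genes were higher and 3 lower, where 17.1% of all 9654 items tested were called higher and 18.5% lower, 35.6% in all. The median log2 change was 0.42 over the ATF4 branch, -0.15 over the ER branch and 0.03 over all items. The test was limma's moderated test with Benjamini-Hochberg adjustment over all items, and a call is an adjusted p under 0.05.

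ATF4 itself, the factor that gives the branch its name, was not called at the mRNA level. Its log2 intensity was 12.99 and 12.91 on the sh225 arrays and 13.08 and 13.24 on the sh225_Dox arrays. The other groups read 12.91 and 12.96 in Ctrl, 12.76 and 12.93 in Ctrl_Dox, 12.84 and 12.85 in sh120, 12.96 and 12.99 in sh120_Dox, 12.87 and 13.09 in WT, and 13.14 and 13.26 in K26. The 2 Dox-treated sh225 arrays lay above the untreated pair, but the change of 0.21 ± 0.09 did not pass the test (adjusted p = 0.0959), and the K26 arrays were as high. ATF5, a related factor that is also controlled through translation, did not pass the test in any of the comparisons and spanned 0.34 on the log2 scale between its highest and lowest group means.

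Among the stress effectors downstream of ATF4, DDIT3 (CHOP, a transcription factor linked to cell death) stood out in sh225_Dox. Its log2 intensity was 11.64 on both sh225_Dox arrays, against 11.06 and 11.00 in sh225. It read 10.76 and 10.92 in Ctrl, 10.63 and 10.64 in Ctrl_Dox, 10.95 and 10.89 in sh120, 10.59 and 10.69 in sh120_Dox, 10.69 and 10.72 in WT, and 11.47 and 11.32 in K26. The sh225_Dox and K26 arrays were thus the highest 4 of the 16, without overlap with any other group. In sh225 the rise was 0.61 ± 0.10 on the log2 scale, 1.52-fold (adjusted p = 6.09e-05).

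SESN2, a stress-induced inhibitor of the growth kinase complex mTORC1, was dim but rose clearly in sh225. It read 6.18 and 6.21 in sh225 and 7.25 and 6.97 in sh225_Dox, a rise of 0.92 ± 0.18 (1.89-fold, adjusted p = 0.000696). Elsewhere it read 6.69 and 6.44 in Ctrl, 6.15 and 6.11 in Ctrl_Dox, and 6.30 and 6.07 in sh120. It was below the detection limit in sh120_Dox (5.86 and 5.83), WT (5.64 and 5.17) and K26 (5.23 and 5.47). The 2 sh225_Dox arrays were higher than all others.

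STC2, a secreted glycoprotein induced by ER stress and by estrogen, was the one gene of the list that rose with Dox in every hairpin line. It read 12.64 and 12.70 in sh225 and 13.41 and 13.61 in sh225_Dox, a rise of 0.84 ± 0.09 (1.79-fold, adjusted p = 6.85e-07). It went from 12.76 and 12.71 to 13.61 and 13.65 in sh120, and from 12.45 and 12.42 to 12.96 and 12.99 in Ctrl, where the random hairpin was induced. The overexpression arrays lay below all hairpin arrays, at 11.70 and 11.89 in WT and 11.33 and 11.25 in K26.

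The largest rise in sh225 was that of TRIB3, a pseudokinase that feeds back on ATF4 and DDIT3, at 0.96 ± 0.14 (1.95-fold, adjusted p = 2.22e-05). CEBPB, a partner of ATF4 in DNA binding, rose by 0.68 ± 0.10 (1.6-fold, adjusted p = 1.84e-05), and CEBPG, another partner, by 0.61. CHAC1, which degrades glutathione, rose by 0.46. Among the amino acid transporters SLC7A5 rose by 0.52, SLC7A1 by 0.51 and SLC3A2, the heavy chain that partners SLC7A5, by 0.34, while SLC7A11 was not detected. The SLC7A5 mean also went from 12.67 in Ctrl to 12.98 in Ctrl_Dox, which was not called. Of the enzymes, ASNS, which makes asparagine, rose by 0.44, MTHFD2, of mitochondrial folate metabolism, by 0.30 and GARS1, which charges glycine tRNA, by 0.39. The serine synthesis enzymes PHGDH, PSAT1 and PSPH did not pass the test in this line.

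In the ER branch PDIA4, a disulfide isomerase, was detected in sh225 and not with Dox. It fell at least 1.21-fold, with measured means of 6.19 and 5.37 (adjusted p = 0.00658). CALR, the chaperone calreticulin, fell by 0.62 ± 0.16 on the log2 scale (1.53-fold, adjusted p = 0.00565), and MANF, a secreted ER stress protein, by 0.41 ± 0.12 (1.33-fold, adjusted p = 0.014). HSPA5 (BiP), the central ER chaperone, read 10.62 and 10.60 in sh225 and 10.41 and 10.51 in sh225_Dox. The change of -0.15 ± 0.11 did not pass the test (adjusted p = 0.292). XBP1, of which the array measured total and not spliced mRNA, read 14.00 on both sh225 arrays and 14.01 and 14.08 with Dox, a change of 0.05 ± 0.09 (adjusted p = 0.717).

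Of the 13 rises, 8 kept their call without any 1 array, namely those of TRIB3, DDIT3, SLC7A5, SLC7A1, CEBPB, CEBPG, SESN2 and STC2. The other 5, and all 3 falls, did not: without sh225 replicate 1, 10 members in place of 16 passed, the call of PDIA4 ended (adjusted p = 0.0613) and so did that of CALR (adjusted p = 0.0729), whose change was -0.33 without sh225_Dox replicate 2 (adjusted p = 0.144). The call of MANF ended without sh225_Dox replicate 1 (-0.21, adjusted p = 0.212) and with median scaling (-0.25, adjusted p = 0.183).

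**Figure D2:**
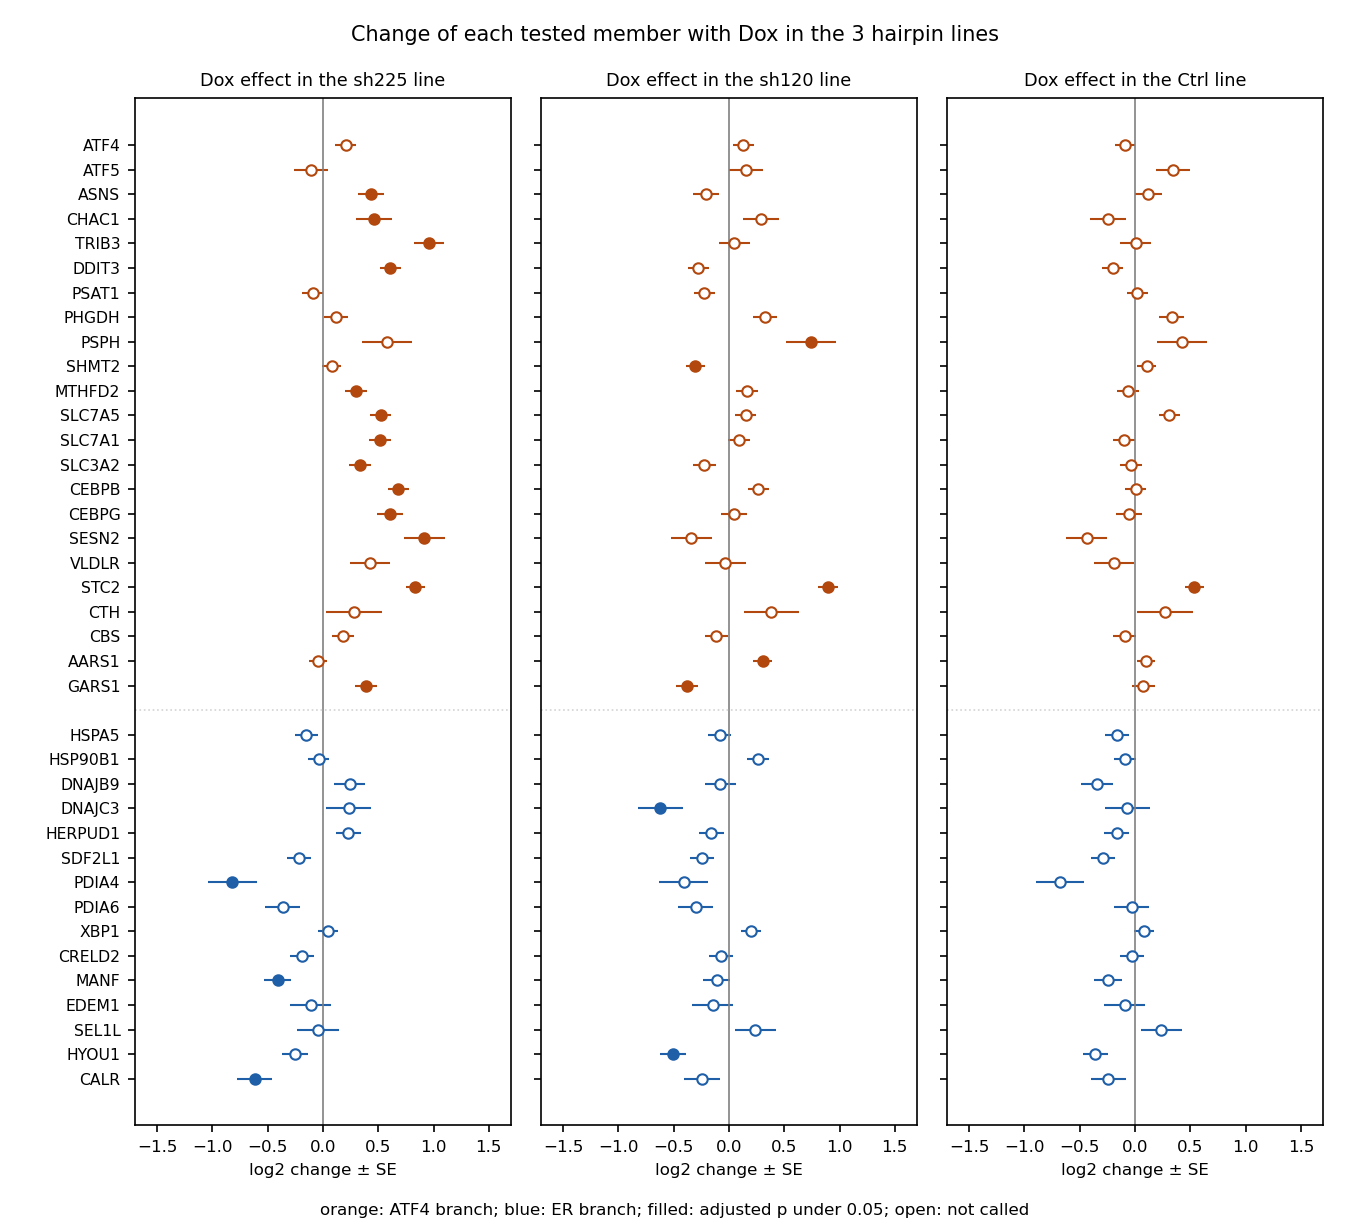
Points give each tested gene's log2 change with Dox and bars its standard error, in sh225, sh120 and Ctrl, with 2 arrays a group. Filled points passed the test: 13 orange (ATF4 branch) points lie to the right and 3 blue (ER branch) points to the left in sh225, while in Ctrl STC2 alone is filled.

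In the line with the hairpin against H1.4, 7 of 38 genes were called with Dox, 18.4%, close to the share over all items. In sh120, 3 of 23 ATF4-branch genes rose and 2 fell with Dox, and 0 of 15 ER-branch genes rose and 2 fell, where 8.07% of all items were higher and 8.43% lower, 16.5% in all. The medians were 0.09 and -0.15, against 0.01 over all items. STC2 rose by 0.89 ± 0.09 (1.86-fold, adjusted p = 3.35e-06). PSPH, the last enzyme of serine synthesis, read 5.96 (not detected) and 6.73 in sh120 and 7.13 and 7.04 with Dox, a rise of 0.74 ± 0.23 (adjusted p = 0.0317). Without the undetected array, sh120 replicate 1, its change was 0.36 (adjusted p = 0.388). AARS1, which charges alanine tRNA, rose by 0.30. GARS1 fell by 0.38 ± 0.10 (1.30-fold, adjusted p = 0.016), so the 2 tRNA synthetases of the list went opposite ways. SHMT2, the mitochondrial enzyme that takes serine to glycine, fell by 0.31 ± 0.09 (1.24-fold, adjusted p = 0.0232). HYOU1, an ER chaperone, fell by 0.51 ± 0.12 (1.42-fold, adjusted p = 0.00726). DNAJC3, an ER co-chaperone, fell from its detected level to below detection, at least 1.28-fold with measured means of 6.38 and 5.75 (adjusted p = 0.0422). DDIT3 changed by -0.28 ± 0.10, short of the threshold (adjusted p = 0.0526). It passed limma's test with the authors' series matrix (adjusted p = 0.042) and with the mean of all detected probes of each gene (adjusted p = 0.0468). Apart from that of STC2, each of the 7 calls ended without at least 1 of the 4 arrays: leaving out sh120 replicate 1 left 1 gene called and leaving out its replicate 2 left 4, and with replicate 1 or 2 of sh120_Dox removed the counts were 2 and 3. Of the markers, CD68 (0.53, adjusted p = 0.0313) and 2 of 8 luminal genes were also higher with Dox in sh120, and their part in the result was not tested.

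In the random hairpin line Dox changed 1 of 38 genes. STC2 rose by 0.54 ± 0.09 (1.45-fold, adjusted p = 0.0013), and it kept its call without any 1 array. The share called over all items was 2.98%, of which 1.45% were higher and 1.53% lower. No ER-branch gene passed limma's test in this line, though 4 of 15 were lower at an unadjusted p under 0.05. The ER-branch median was -0.16, close to those of the other 2 lines (-0.15 in each), and the ATF4-branch median was 0.005. Without Ctrl replicate 2, 3 members were called in place of 1.

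The Dox effects of sh225 and Ctrl were then set against each other by the interaction term of the same fit. It takes out the response to Dox and serum removal only as far as both lines share it. With 1 line per hairpin, a response particular to the sh225 line cannot be told apart from that to its hairpin. The excess in sh225 was in the ATF4 branch: 7 of 23 genes rose more in sh225 than in Ctrl and 0 less, and 0 of 15 ER-branch genes differed either way, where 6.66% of all items had a higher and 9.61% a lower effect, 16.3% in all. Of the ER branch, 2 genes had a higher effect at an unadjusted p under 0.05 and none a lower one. The median difference was 0.31 over the ATF4 branch, -0.02 over the ER branch and 0.01 over all items. SESN2 differed by 1.35 ± 0.26 on the log2 scale (2.56-fold, adjusted p = 0.00105), since it rose in sh225 and its change in Ctrl was -0.44. TRIB3 differed by 0.96 ± 0.19 (1.94-fold, adjusted p = 0.00179). DDIT3 differed by 0.81 ± 0.13 (1.75-fold, adjusted p = 0.000269). The other 4 were CHAC1, at 0.71 ± 0.23 (adjusted p = 0.0405), CEBPB at 0.68, CEBPG at 0.66 and SLC7A1 at 0.62. STC2, which rose in both lines, did not pass. The call of CEBPG ended without sh225 replicate 1 (adjusted p = 0.0562) and that of CHAC1 without each of 6 of the 8 arrays, Ctrl_Dox replicate 1 giving the highest adjusted p, 0.201. With median scaling in place of quantile normalization, 10 ATF4-branch genes and 1 ER-branch gene were higher.

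The same test between the 2 targeting hairpins gave 9 of 23 ATF4-branch genes with a higher Dox effect in sh225 than in sh120 and 0 lower, and 0 of 15 ER-branch genes, against 5.58% higher, 8.37% lower and 14% in all. The median difference was 0.37 over the ATF4 branch and -0.06 over the ER branch, against 0.01 over all items. Of the ER branch, 2 genes were higher and 1 lower at an unadjusted p under 0.05. SESN2, undetected in sh120_Dox, differed at least 2.12-fold (1.26 on the log2 scale as fitted to the measured values). TRIB3 differed by 0.91, DDIT3 by 0.89, GARS1 by 0.77 and ASNS by 0.65. CEBPG and SLC3A2 differed by 0.56 each, CEBPB by 0.41 and SHMT2 by 0.38. This comparison and the one with Ctrl share the sh225 arrays. TRIB3, DDIT3, SESN2 and GARS1 kept their calls without any 1 array, while the number called was 4 without sh120 replicate 1 and 5 without sh225 replicate 1. Between sh120 and Ctrl, limma called 0 of 38 Dox effects different, where 0.425% of all items were called (0.352% higher, 0.0725% lower) and 5 of the 38 had an unadjusted p under 0.05. Without Dox, 0 of 38 genes differed between sh225 and Ctrl (0.456% of all items, with 0.331% higher and 0.124% lower) and 0 of 38 between sh120 and Ctrl (0.0207%), with 5 at an unadjusted p under 0.05 in each.

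Genes of the same pathways that were not on the list were read from lists of their own. The shares over all items for Dox in sh225, 17.1% higher and 18.5% lower, apply to these lists too. With Dox in sh225, 6 of 15 tested further ATF4 targets rose and 1 fell. The largest rises were those of ATF3, a stress-induced factor, at 1.07, SQSTM1, an autophagy receptor, at 0.95, and GDF15, a secreted stress hormone, at 0.83. Of 15 other cytosolic tRNA synthetases 5 rose and 0 fell, led by WARS1 at 0.89, HARS1 at 0.50 and EPRS1 at 0.49. WARS1 is also induced by interferon. Of 13 tested sensors and eIF2 regulators 3 rose and 1 fell. ATF6, the ER-resident factor, rose by 0.72, and PPP1R15A (GADD34), the regulatory subunit that reverses eIF2 phosphorylation, by 0.64, while MBTPS1, the protease that releases ATF6, fell by 0.50. Of 28 other genes of ER folding, secretion and degradation 3 rose, among them SEC61A1 at 0.48, and 3 fell, among them TXNDC5 at -0.63 and CALU at -0.44. In the interaction with Ctrl, 6.66% of all items were called higher and 9.61% lower. Called higher were 4 of the 15 further ATF4 targets and 2 of the 15 tRNA synthetases. So were 2 of the 13 sensors and eIF2 regulators and 2 of the 28 ER genes, the last close to the share over all items. In each list 0 were lower. The ATF4 targets were ATF3 (1.2), GDF15 (1.37), SQSTM1 (1.24) and MAP1LC3B (0.86). The others were WARS1 (0.87), EPRS1 (0.47), ATF6 (0.95), the double-stranded RNA kinase EIF2AK2 (0.62), CANX (0.68) and SEC61A1 (0.52). In sh120, where 8.07% of all items rose and 8.43% fell, 1 of the 15 further ATF4 targets rose and 3 fell with Dox, among them GDF15 at -0.56, which also fell in Ctrl at -0.53.

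**Figure D3:**
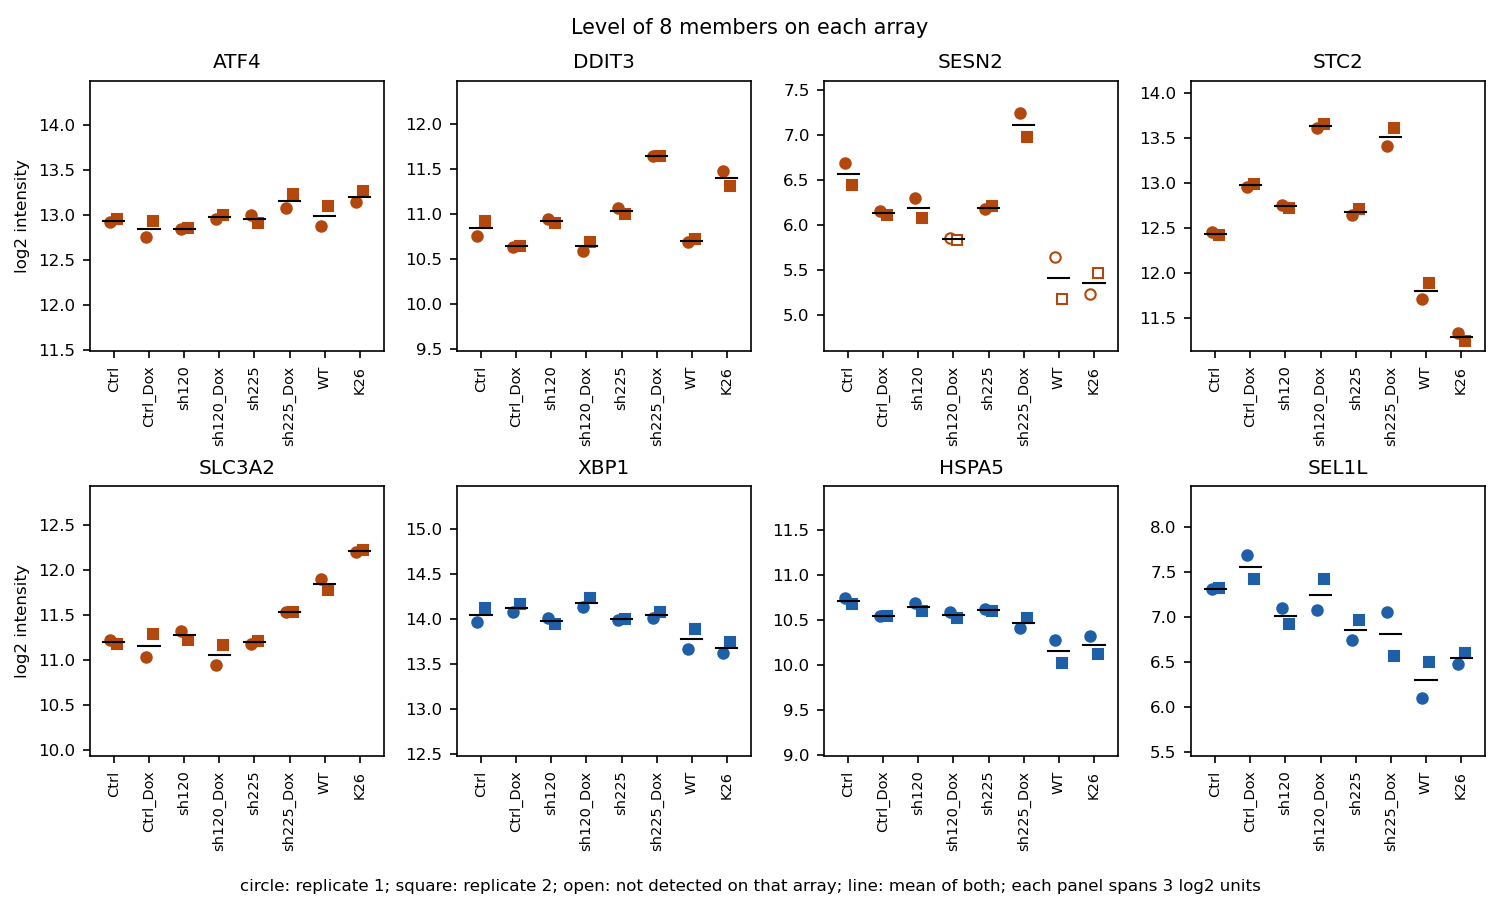
Normalized log2 intensity of ATF4, DDIT3, SESN2, STC2, SLC3A2, XBP1, HSPA5 and SEL1L on each of the 16 arrays, with replicate 1 as a circle, replicate 2 as a square, the group mean as a line and an open marker where the probe was not detected. DDIT3 is highest in sh225_Dox and K26, SESN2 is high in sh225_Dox and undetected in sh120_Dox, WT and K26, and STC2 is high in sh120_Dox and sh225_Dox and low in WT and K26.

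The comparison of the K26 line with the WT line addressed the substitution in overexpressed H1.4, in 2 lines that also differ in H1-2. In all, 12 of 23 ATF4-branch genes were lower in K26 and 2 higher, and 3 of 15 ER-branch genes were lower and 0 higher, where 12.8% of all items were lower and 10.1% higher, 22.9% in all. The medians were -0.35 over the ATF4 branch, -0.10 over the ER branch and -0.01 over all items. Luminal marker levels also differed: the sum of 8 log2 intensities was 77.6 and 77.9 in K26, 78.8 and 79.6 in WT and 81.3 to 82.8 in the hairpin groups, and their part in these results was not tested. Of these markers 1 of 8 was called lower in K26 than in WT, with 0 higher. The sum over 6 fibroblast markers was 31.1 to 31.4 in both overexpression groups and 32.7 to 34.1 in the hairpin groups.

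All 3 enzymes of serine synthesis were lower in K26. PHGDH, the first of them, was lower by 0.76 ± 0.11 on the log2 scale (1.69-fold, adjusted p = 0.00012). PSPH was not detected in K26 and was at least 1.41-fold lower there, with measured means of 5.66 in K26 and 6.40 in WT (adjusted p = 0.0248). PSAT1, the middle enzyme, changed by -0.49. The one-carbon enzymes downstream of serine were lower too, with SHMT2 at -0.39 and MTHFD2 at -0.59. CBS, which joins serine and homocysteine, was lower by 0.60 ± 0.10 (1.52-fold, adjusted p = 0.000498), and AARS1 by 0.74 ± 0.08 (1.67-fold, adjusted p = 9.25e-06). The remaining lower genes were STC2 at -0.51, ASNS at -0.48, GARS1 at -0.46, SLC7A1 at -0.35 and CEBPB at -0.33. A second ASNS probe, detected on all arrays, changed by 0.06, and with the mean of both the call was lost (adjusted p = 0.374).

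DDIT3 and SLC3A2 went the other way. DDIT3 was higher in K26 by 0.69 ± 0.10 (1.61-fold, adjusted p = 7.05e-05). SLC3A2 read 11.90 and 11.77 in WT and 12.20 and 12.22 in K26, a difference of 0.37 ± 0.10 (1.29-fold, adjusted p = 0.0137). It read 11.22 and 11.17 in Ctrl, 11.03 and 11.29 in Ctrl_Dox, 11.32 and 11.23 in sh120, 10.94 and 11.16 in sh120_Dox, 11.18 and 11.21 in sh225, and 11.53 on both sh225_Dox arrays. Its order was thus K26, WT, sh225_Dox and then the other hairpin groups, and all 3 of its probes were higher in K26 than in WT, by 0.37 to 0.82. ATF4 mRNA itself changed by 0.22 ± 0.09 and did not pass the test (adjusted p = 0.103). With the authors' series matrix it passed limma's test, at 0.26 (adjusted p = 0.0474).

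In the ER branch, SDF2L1, which acts with the BiP cycle, was lower in K26 by 0.43 ± 0.11 (1.35-fold, adjusted p = 0.00835). CRELD2, a secreted ER stress protein, was lower by 0.37 ± 0.11 (1.29-fold, adjusted p = 0.0188), and HSP90B1 (GRP94), the ER form of HSP90, by 0.34 ± 0.10 (1.27-fold, adjusted p = 0.0164). HSPA5 read 10.27 and 10.02 in WT and 10.32 and 10.12 in K26, and XBP1 13.67 and 13.89 in WT and 13.62 and 13.75 in K26, so both overlapped. Without WT replicate 1 the number of genes called fell from 17 to 10, and without K26 replicate 2 to 9. DDIT3, PSAT1, PHGDH, MTHFD2, STC2, CBS and AARS1 kept their calls without any 1 array, while all 3 ER-branch calls were lost, with adjusted p of 0.088 to 0.142 without WT replicate 1.

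**Figure D4:**
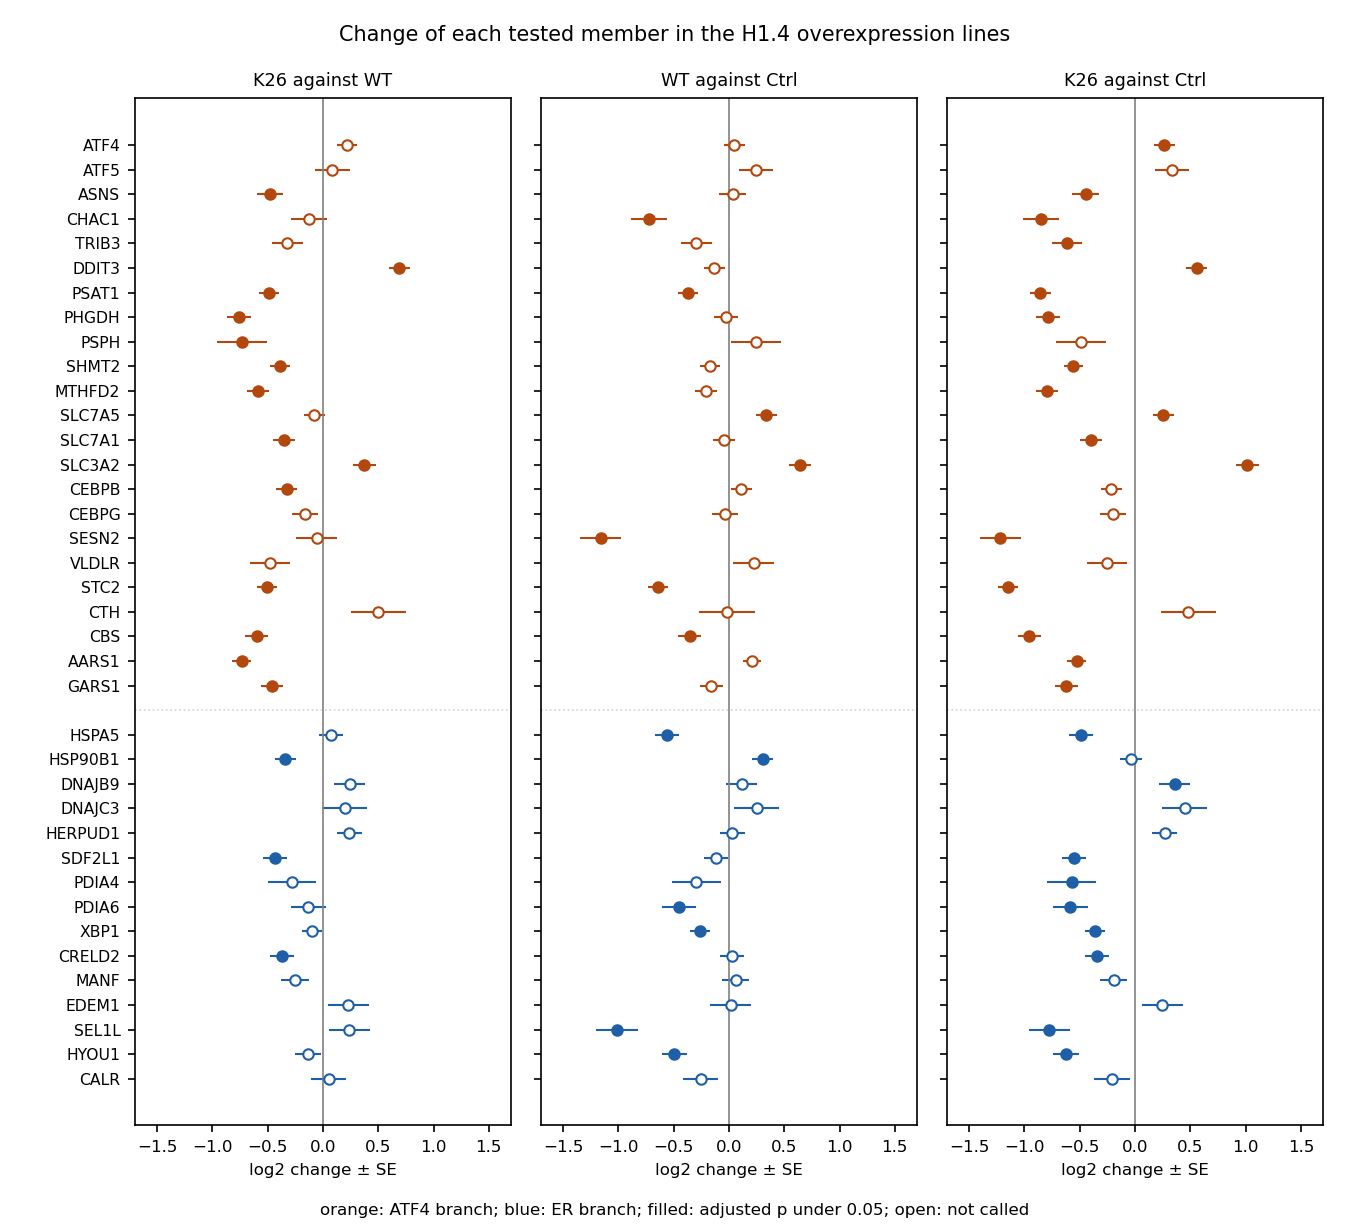
Points give each tested gene's log2 difference and bars its standard error for K26 against WT, WT against Ctrl and K26 against Ctrl, with 2 arrays a group; filled points passed the test. In the left panel the serine and one-carbon genes lie to the left, with DDIT3 and SLC3A2 to the right.

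No array is shared between the means of the sh225 Dox effect and those of K26 against WT, so their calls were set side by side. Both used the same estimate of each gene's spread from all 16 arrays, so the calls are not fully independent. Of the 13 genes that rose in sh225, 6 (ASNS, CEBPB, GARS1, MTHFD2, SLC7A1 and STC2) were lower in K26, 46.2% of the rises and 40% of the 15 genes lower in K26. Over all items 150 did both, 9.09% of the 1650 that rose and 12.1% of the 1235 that were lower. All 13 rises were in the ATF4 branch, however, and 12 of its 23 tested genes were lower in K26. An overlap of the 6 genes beyond these branch counts was not tested. STC2 was the only one of these 6 genes to keep its call in both comparisons without any 1 array. It also rose with Dox in sh120 and Ctrl. DDIT3 and SLC3A2 were higher in both comparisons, 15.4% of the 13 rises and both of the genes higher in K26. Over all items that overlap was 16.5% of the rises and 28.1% of the genes higher in K26. PHGDH, PSAT1, PSPH, SHMT2, CBS and AARS1 were lower in K26 but did not pass the test in sh225.

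Against the untreated random hairpin line, the WT line differed in about the share of the list that it did over the whole array. Of 23 ATF4-branch genes 5 were lower and 2 higher, and of 15 ER-branch genes 5 were lower and 1 higher, against 15.5% of all items lower and 16.3% higher, 31.8% in all. SESN2 was not detected in WT and was at least 1.54-fold lower, with measured means of 5.41 and 6.57 (adjusted p = 0.000104). CHAC1 was lower by 0.72 ± 0.16 (1.65-fold, adjusted p = 0.00229). STC2 was lower by 0.64 ± 0.09 (1.56-fold, adjusted p = 2.69e-05). SLC3A2 was higher by 0.64 ± 0.10 (1.56-fold, adjusted p = 0.000112). PSAT1 at -0.37, CBS at -0.36 and SLC7A5 at 0.34 made up the rest of the branch.

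The ER-branch change that was largest in WT was that of SEL1L, an adaptor of the ligase complex that sends misfolded ER proteins to degradation. It read 7.31 and 7.32 in Ctrl and 6.10 and 6.50 in WT, a difference of -1.01 ± 0.19 (2.02-fold lower, adjusted p = 0.00045). It read 7.68 and 7.42 in Ctrl_Dox, 7.10 and 6.92 in sh120, 7.08 and 7.42 in sh120_Dox, 6.74 and 6.97 in sh225, 7.06 and 6.56 in sh225_Dox, and 6.48 and 6.60 in K26. The WT arrays overlapped those of K26 but lay below all arrays of the hairpin lines. HSPA5, at 10.74 and 10.67 in Ctrl, was lower in WT by 0.56 ± 0.11 (1.47-fold, adjusted p = 0.000591). HYOU1 was lower by 0.49 ± 0.12 (1.41-fold, adjusted p = 0.00346) and PDIA6, a disulfide isomerase, by 0.45 ± 0.16 (1.37-fold, adjusted p = 0.0335). XBP1, at 13.96 and 14.12 in Ctrl, differed by -0.26, and HSP90B1 was higher by 0.30. In the other hairpin groups HSPA5 read 10.54 on both Ctrl_Dox arrays, 10.68 and 10.60 in sh120, and 10.59 and 10.52 in sh120_Dox. XBP1 read 14.08 and 14.17 in Ctrl_Dox, 14.01 and 13.95 in sh120, and 14.13 and 14.23 in sh120_Dox, so for both genes the overexpression arrays lay below all hairpin arrays.

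Of the luminal markers 3 of 8 were lower and 1 higher in WT than in Ctrl, and of the fibroblast markers both tested, VIM and COL1A1 (-0.49), were lower. Their part in the result was not tested. The counts moved with the scaling. With median scaling the median of all items shifted by 0.14, to 0.13. The ATF4-branch median then went from -0.04 to 0.20, with 6 genes higher and 3 lower. The ER-branch median went from -0.12 to 0.09, with 1 higher and 2 lower. Both branch medians changed sign, but that of the ER branch stayed below the median of all items. The calls of CBS, PSAT1, HYOU1, PDIA6 and XBP1 were lost in limma's test, with adjusted p of 0.0542 to 0.807. Without WT replicate 1, 8 members were called in place of 13. CHAC1, SLC3A2, SESN2, STC2, HSPA5, SEL1L and HYOU1 kept their calls without any 1 array.

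K26 against Ctrl was the broadest of the comparisons, for the list as for the array. Of 23 ATF4-branch genes 13 were lower and 4 higher, and of 15 ER-branch genes 8 were lower and 1 higher, against 27.2% of all items lower and 24.2% higher, 51.4% in all. The medians were -0.49, -0.34 and -0.03 over the ATF4 branch, the ER branch and all items. SESN2 was not detected in K26 and was at least 1.58-fold lower, with measured means of 5.35 and 6.57 (adjusted p = 2.31e-05). STC2 was lower by 1.15 ± 0.09 (2.21-fold, adjusted p = 7.53e-09). SLC3A2 was higher by 1.01 ± 0.10 (2.02-fold, adjusted p = 2.05e-07). CBS was lower by 0.96 ± 0.10 (1.94-fold, adjusted p = 4.15e-07). The remaining ATF4-branch genes that were lower were PSAT1 (-0.86), CHAC1 (-0.85), MTHFD2 (-0.80), PHGDH (-0.79), GARS1 and TRIB3 (-0.62 each), SHMT2 (-0.56), AARS1 (-0.53), ASNS (-0.45) and SLC7A1 (-0.40).

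The other higher genes were DDIT3 (0.56), ATF4 (0.27) and SLC7A5 (0.26). The call of ATF4 rests on its brightest probe (adjusted p = 0.0233). Its second probe, detected on all arrays, changed by 0.25 and a dim one, detected on 6 arrays, by -0.41, and with the mean of all 3 the call was lost (adjusted p = 0.828). In the ER branch SEL1L was lower by 0.77 ± 0.19 (1.71-fold, adjusted p = 0.00191). HYOU1 was lower by 0.62 ± 0.12 (1.54-fold, adjusted p = 0.000205). PDIA6 was lower by 0.59 ± 0.16 (1.5-fold, adjusted p = 0.00422). PDIA4 was not detected in K26 and was at least 1.45-fold lower, with measured means of 5.87 and 6.44 (adjusted p = 0.0347). SDF2L1 (-0.55), HSPA5 (-0.49), XBP1 (-0.36) and CRELD2 (-0.34) were also lower, and DNAJB9, an ER co-chaperone, was higher by 0.36. A second XBP1 probe changed by -0.59. Of the 26 calls 19 held without any 1 array. Those of ASNS, ATF4, SLC7A5, DNAJB9, PDIA4, PDIA6 and CRELD2 ended without at least 1, all 7 of them without K26 replicate 2, where PDIA6 changed by -0.35 (adjusted p = 0.112). Without Ctrl replicate 2, PDIA4 changed by -0.35 (adjusted p = 0.291). In K26 against Ctrl 5 of 8 luminal markers were lower and 1 higher, and VIM and COL1A1 (-0.35) were lower. Their part in the result was not tested.

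With median scaling the median of all items shifted by 0.11, to 0.09, and 9 ATF4-branch genes were lower and 5 higher, with 4 ER-branch genes lower and 2 higher. That ended the calls of AARS1, ASNS, SLC7A1, TRIB3, CRELD2, HSPA5, SDF2L1 and XBP1, with adjusted p of 0.0715 to 0.516. With the untreated sh225 arrays as the control, which were in the same run as K26 and WT and were chosen for this after seeing the data, 14 ATF4-branch genes were lower and 4 higher in K26, with 6 ER-branch genes lower and 3 higher. That control ended the calls of SEL1L (-0.32, adjusted p = 0.162), PDIA4 (adjusted p = 0.223) and SLC7A1 (adjusted p = 0.0681) in K26, and in WT those of CHAC1 (adjusted p = 0.0816), HYOU1 (adjusted p = 0.1), HSP90B1 (adjusted p = 0.0936) and XBP1 (adjusted p = 0.0602). In WT, 6 ATF4-branch genes were then lower and 4 higher, with 3 ER-branch genes lower and 0 higher.

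Among the genes outside the list, PPP1R15A had the largest difference between each overexpression line and Ctrl. It was higher than in Ctrl by 1.6 in WT and 2.27 in K26, and higher in K26 than in WT by 0.67. Of 15 further ATF4 targets, 4 were higher and 4 lower in WT than in Ctrl, against 16.3% and 15.5% of all items. In K26 5 were higher and 8 lower, against 24.2% and 27.2%, with a median of -0.63. Among them, the amino acid transporter SLC38A2 was higher by 0.85 in WT and 1.79 in K26, while GDF15 was lower by 1.26 in WT. Of the 15 other cytosolic tRNA synthetases, 3 were lower in WT and 7 in K26 against Ctrl, with 0 higher, where 15.5% and 27.2% of all items were lower. In K26 MARS1 differed by -0.82 and IARS1 by -0.74. Of 28 other genes of ER folding, secretion and degradation, 11 were higher and 4 lower in K26 than in Ctrl, again against 24.2% and 27.2% of all items. ERO1A, the ER oxidase, was higher by 1.22 in WT and 0.83 in K26. In K26 against WT, 3 of 15 further ATF4 targets were higher and 2 lower, against 10.1% and 12.8% of all items, with DDIT4, an inhibitor of mTORC1, at -1.02.

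Over the 11 comparisons 33 of the 38 tested genes were called at least once, STC2 in 6 of them, and 5 in none, where 72.8% of all items were called at least once. Of these 5, HERPUD1, an ER membrane protein of the degradation pathway, ranged from 9.60 to 10.21 on the log2 scale over all arrays and was highest in K26. EDEM1, which marks misfolded glycoproteins for degradation, ranged from 6.64 to 7.82. VLDLR, a lipoprotein receptor, ranged from 6.20 to 7.17 and came closest to a call in K26 against WT (-0.48 ± 0.18, adjusted p = 0.0656). CTH, which releases cysteine from cystathionine, was detected on 3 of 16 arrays, and ATF5 was the last of the 5. SLC7A11 gave 4.58 to 5.63 on the same scale, with no array above the detection limit.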

How the data were processed

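The deposited scanner table holds, for every probe and array, an intensity with a detection p-value; all intensities were positive and unscaled. GenomeStudio 1.6.0 is named by the submitters' processing notes. A series matrix of linear intensities, deposited by the authors with no stated normalization, served as an alternative only. Per the labels' protocols, cDNA came from 100 ng of RNA with a RIN of 9.5.

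All 50 member probes matched the gene table by identifier. Intensities were set on the log2 scale with limma 3.58.1 in R 4.3.3 (neqc: normexp correction from inferred negative controls with an offset of 16, then quantile normalization). The filter asked for a detection p under 0.01 on 2 or more of 16 arrays (11258 probes), and the brightest probe per symbol was tested, giving 9654 items. A fit with 8 group means (eBayes with trend, 8 residual degrees of freedom) gave contrasts and standard errors, with a median standard error of 0.152, and was tested on simulated data. The number of arrays limits the precision. "At least" folds belong to genes undetected on both arrays of the dimmer group, whose floor on each array was the faintest detected signal, or the gene's own value if higher. Levels of different probes were not compared.

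Members and lists were chosen with earlier results of these data known. Values on every array are given for ATF4, DDIT3, XBP1 and HSPA5 and for called members with a log2 change of at least 1. All called members are named, the 4 largest per branch in full. Sequences came from RefSeq (GRCh38.p14). Alternatives covered background, scaling, filter, probe choice, threshold, fit and each array left out.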

Additional observations from a re-analysis of the deposited data

Results flagged for a closer look

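The interaction term of the fit found Dox effects that differed between lines for 11 genes of the ATF4 branch and for none of the ER branch. In each the effect in sh225 was the higher one. The 11 are those called in at least 1 of 2 comparisons, and the like share over all items was not computed. Of all items 16.3% differed from Ctrl, 6.66% of them all being higher in sh225, and 14% from sh120, with 5.58% higher. Both comparisons use the same sh225 arrays. Against Ctrl, the difference on the log2 scale was 1.35 for SESN2, 0.96 for TRIB3, 0.81 for DDIT3, 0.71 for CHAC1, 0.68 for CEBPB, 0.66 for CEBPG and 0.62 for SLC7A1, with adjusted p from 0.000269 for DDIT3 to 0.0405 for CHAC1 in limma. Against sh120, the fitted value was 1.26 for SESN2, which was undetected in sh120_Dox and so differed at least 2.12-fold. It was 0.91 for TRIB3, 0.89 for DDIT3, 0.77 for GARS1, 0.65 for ASNS, 0.56 for CEBPG, 0.56 for SLC3A2, 0.41 for CEBPB and 0.38 for SHMT2, with adjusted p from 0.000113 for DDIT3 to 0.0477 for CEBPB. With no filter the calls of SHMT2 and CEBPB against sh120 and of CHAC1 against Ctrl ended. Those of SHMT2, CEBPB and CEBPG against sh120 ended with no trend in eBayes. The call of ASNS against sh120 ended with the mean of its probes.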

How the results depend on the processing

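Of 1533 repeats of the 96 calls, 1300 kept direction and call, 233 lost the call and 0 changed sign, and 42 calls held under every alternative run. Requiring a log2 change of at least 0.5 left 10 of 16 genes called for Dox in sh225, 4 of 7 in sh120, 7 of 17 for K26 against WT and 6 of 13 for WT against Ctrl. In sh120, 3 genes were called with no filter and 4 with no trend in eBayes. With median scaling, 11 genes in place of 7 differed in the Dox effect between sh225 and Ctrl, and 1 in place of 0 differed between those lines without Dox. The branch medians of WT against Ctrl changed sign under median scaling, to 0.20 and 0.09. The median of all items rose too and stayed above that of the ER branch. Leaving out 1 array at a time gave 10 to 14 genes for Dox in sh225, 1 to 4 in sh120 and 1 to 3 in Ctrl. It gave 6 to 10 for sh225 minus Ctrl, 0 to 0 for sh120 minus Ctrl and 4 to 9 for sh225 minus sh120. For K26 against WT it gave 9 to 15, for WT against Ctrl 8 to 12, for K26 against Ctrl 20 to 25, and for both untreated comparisons 0 to 0. Where this left 1 array in a group, it was assumed to vary like the others.

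The replicate numbers share no culture or batch in the labels. Over 28 pairs of groups the deviations of same-numbered arrays correlated between -0.362 and 0.319, with a median of 0.030 and 9 above 0.1, so the numbers were not taken to pair samples. With the replicate number as a block, 17 genes in place of 16 were called for Dox in sh225 and 27 in place of 26 for K26 against Ctrl, and CEBPB was lost from sh225 minus sh120 (adjusted p = 0.0539). A block for the slide was not run because no source used here names the slide. For 1095 probes (4.46%), 0 of them member probes, the authors' series matrix departed from its smooth relation to the scanner table. The median gap of these probes over the arrays was above 0.3 on the log2 scale, and its reason was not tested. With 2 arrays a group and a median standard error of 0.152, changes of small size could be missed, and for dim genes such as SESN2, PSPH and PDIA4 the detection limit bounds the fold.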
